A study of Homo sapiens with 6 samples.

Results

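The calnexin cycle of the endoplasmic reticulum (ER) is described here through 8 genes, out of 48162 in the deposited table: the lectin chaperones CANX and CALR, and PDIA3, UGGT1, UGGT2, GANAB, PRKCSH and MOGS, which work with them. Rows were taken by gene name, and each name had 1 row. All 8 genes were among the 16233 that passed the filter on low counts. CANX was chosen by its adjusted p and fold change between the mimics in these libraries, and the other 7 genes because they act with it. The contrast between the mimics is therefore given for all 8 as a description, without a test of their own.

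HEK293 cells, an established human embryonic kidney line, were transfected, and the libraries hold RNA pulled down with Flag-tagged Ago2. Ago2 holds the small RNA inside the RNA-induced silencing complex. One group received a mimic of microRNA-219 (3 libraries) and the other a negative control mimic (3 libraries). Both groups received Flag-Ago2 along with their mimic and went through the same anti-Flag precipitation. Collection dates were 22 August, 5 September and 18 September, with 1 library of each group on each date. The labels do not say whether the dates were separate cultures, nor which strand of microRNA-219 the mimic carried. Input RNA was not used here, so the amount of a transcript in the cells and its share bound to Ago2 cannot be told apart.

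As background, newly made glycoproteins receive a glucose-capped sugar chain in the ER. MOGS (glucosidase I) and the glucosidase II dimer of GANAB (catalytic) and PRKCSH (regulatory) trim the glucoses one after another. The membrane-bound lectin calnexin (CANX) and its soluble counterpart calreticulin (CALR) then hold the chain with its last glucose, while the disulfide isomerase PDIA3 works on the bound protein. UGGT1 senses proteins that are still misfolded and puts a glucose back, so that they bind again. UGGT2 is its less studied paralogue.

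Sequences are shown for microRNA-219a and for a promoter element that CANX and CALR share. The labels name the microRNA of the mimic without the letter. The mature forms of microRNA-219a in RefSeq (GRCh38.p14) are given 5′ to 3′ with the seed, bases 2 to 8, in capitals. The 5p form is made from chr6:33207855-33207875 (plus strand) and from chr9:128392676-128392696 (minus strand). Each of these genes has a 3p form of its own, at chr6:33207896-33207917 and chr9:128392632-128392653. The 3 seeds differ.
hsa-miR-219a-5p: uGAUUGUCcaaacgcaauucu
hsa-miR-219a-1-3p: aGAGUUGAgucuggacgucccg
hsa-miR-219a-2-3p: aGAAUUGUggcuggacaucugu

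Promoter windows of 300 bases (250 before to 50 after each start, RefSeq, GRCh38.p14) were at hand for 6 of the 8 genes. PDIA3 and MOGS had no entry. The windows were searched on both strands for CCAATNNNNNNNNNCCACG, the ER stress response element through which ATF6 is known to raise ER chaperone genes. It was found in CANX and CALR and in no window of UGGT1, UGGT2, GANAB or PRKCSH. In all, 27 of 35116 windows held it (0.0769%), from 25 of 27305 genes. The stretches below run in the direction of the gene at chr5:179698758-179698816 (CANX, plus strand) and chr19:12938364-12938422 (CALR, plus strand), with the element in capitals. It lies on the gene's own strand in CANX and on the opposite strand in CALR.
CANX: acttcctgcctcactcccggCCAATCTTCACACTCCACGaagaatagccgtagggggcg
CALR: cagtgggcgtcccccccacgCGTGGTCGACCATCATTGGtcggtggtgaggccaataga

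Total counts ran from 20379336 to 31490366 in miR-219 libraries and from 20233819 to 34408699 in control libraries. Levels are counts per 1000000 (CPM), scaled between libraries by the trimmed mean of M-values (TMM) unless said otherwise. Marker sums are unscaled CPM. Mitochondrially encoded genes took 13.3, 6.25 and 7.27% of the counts in miR-219 libraries and 8.39, 5.66 and 6.48% in control libraries, in date order. The mimic library was the higher one on each date, and that of 22 August, which also had the most CANX, stood above all others. With AGO2 and the mitochondrial genes left out of the table, the log2 fold change of CANX was 0.82. AGO2, the transfected gene, had 118724 to 163121 TMM-scaled CPM in miR-219 libraries and 102201 to 183242 CPM in control libraries (log2 change 0.08, 95% CI −0.61 to 0.77). All 5 HEK293 markers checked (NEFL, NEFM, INA, PAX2 and VIM) had counts in every library, summing to 963 to 1078 CPM in miR-219 libraries and 878 to 1166 CPM in control libraries. Summed plasma cell markers ran from 0.0953 to 11.2 CPM in miR-219 libraries and from 0.0872 to 24.7 CPM in control libraries, with 5 of 6 at 0 in some library (IGHA1, IGHA2, IGKC, IGJ and MZB1). Intestinal epithelial markers ran from 0.381 to 16.3 CPM in miR-219 libraries and from 1.13 to 24.2 CPM in control libraries, with 6 of 9 at 0 in some library. Erythroid markers were at 0.0318 to 0.147 CPM in miR-219 libraries and 0.155 to 688 CPM in control libraries, and the highest value was the control library of 5 September. Hepatocyte markers stayed at or under 1.42 CPM in all 6 libraries. The labels give HEK293 cells only, and the source of the RNA of these other markers was not tested. The mimic library of 22 August and the control library of 5 September, both with 4 of 6 plasma cell markers and 5 of 9 intestinal markers at 0, had 897 and 464 CPM of CANX and 771 and 740 CPM of CALR. The log2 fold change of CANX was 0.82 over all 6 libraries, 0.68 without that mimic library and 0.88 without that control library. The part of the mitochondrial share and of the other cell types' RNA in the results was not tested further.

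CANX (ENSG00000127022, chr5:179105629-179157926 of hg19, plus strand) had 25966, 22466 and 12468 counts with the microRNA-219 mimic on 22 August, 5 September and 18 September. With the negative control mimic it had 11240, 15697 and 7910 counts. On the TMM scale these were 897, 792 and 577 CPM in miR-219 libraries and 446, 464 and 376 CPM in control libraries. All 3 mimic libraries lay above all 3 control libraries, which was so for 4.22% of the genes tested. Means were 755 ± 163 CPM in miR-219 libraries and 429 ± 46.8 CPM in control libraries (SD, n = 3 each). The log2 fold change was 0.82 (SE 0.18, 95% CI 0.42 to 1.21), or 1.76-fold.

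The call of CANX varied with the tool. It was the value that chose the gene. The adjusted p of CANX over all genes was 0.0228 by DESeq2 (2 genes called higher, 0.00698% of those with an adjusted p) and 6.7e-05 by DESeq2 with the date as a replicate block (4 called higher, 0.0252%). By edgeR's quasi-likelihood test it was 0.999 with the filter on low counts, 0.638 with the replicate block and 0.00432 with no filter (6 called higher, 0.0209%), and by limma-voom it was 0.9996. With the filter, edgeR called 0.0% of genes in either direction (488 genes had an unadjusted p under 0.05). There CANX had the fifth lowest p of 16233 genes.

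Since CANX was chosen by its fold change, a high rank among abundant genes follows from the choice and is given as a description. Of 343 genes with a mean of at least 300 CPM, CANX had the highest log2 fold change, followed by MT-ND4L, a mitochondrially encoded subunit of complex I, at 0.61. Within single dates CANX ranked 4, 3 and 1 among these 343 genes, in date order. Of 4169 genes with a mean of at least 50 CPM, CANX ranked 2, below OAS3. Within single dates it ranked 12, 12 and 3 among these. The 343 abundant genes leaned below 0 as a whole, with a median log2 fold change of −0.08 and 243 of 343 below 0.

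**Figure D1:**
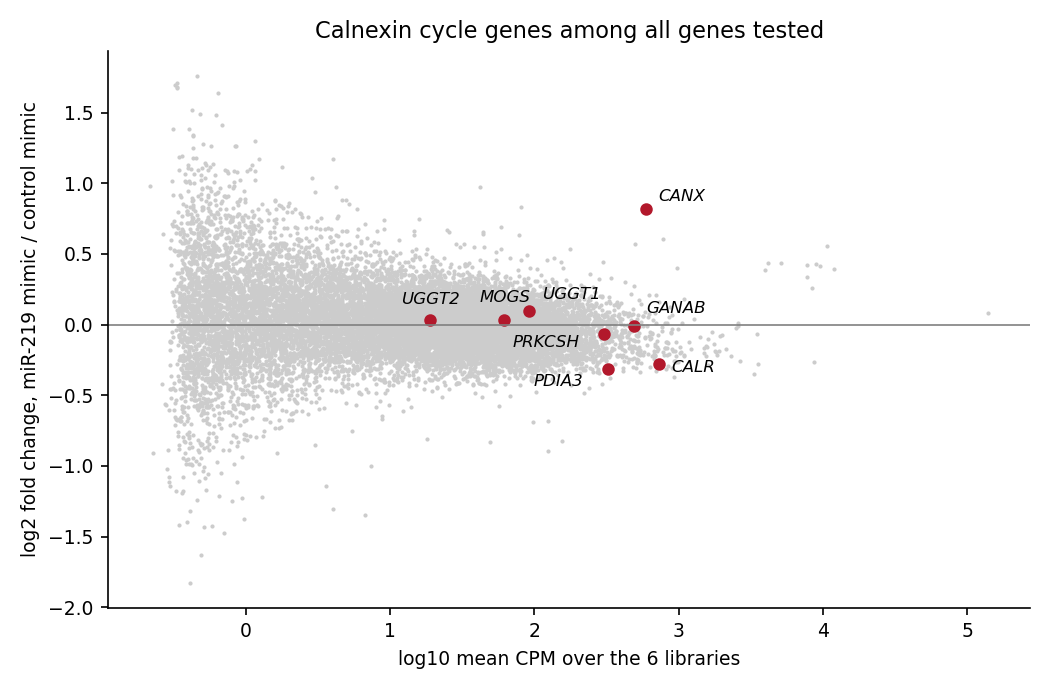
Log2 fold change (microRNA-219 mimic over negative control mimic) against the log10 of the mean CPM over the 6 libraries, with 1 point for each of the 16233 genes tested and the 8 calnexin cycle genes in red. CANX, which was chosen by its adjusted p and fold change, lies at 0.82, while the other 7 genes lie between −0.31 and 0.09.

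CALR (ENSG00000179218, chr19:13049392-13055303, plus strand), the soluble counterpart, had the other sign. It had 771, 639 and 581 TMM-scaled CPM in miR-219 libraries, against 911, 740 and 765 CPM in control libraries, in date order. On each date the mimic library was the lower one, though the mimic library of 22 August was above the control libraries of the later dates. In CPM without scaling between libraries, the groups did not overlap, at 709, 653 and 616 CPM in miR-219 libraries and 889, 727 and 796 CPM in control libraries. That held for 2.79% of the genes tested. The fitted log2 change was −0.28 (SE 0.16; 95% CI −0.64 to 0.08), and CALR was the 18th lowest of the 343 abundant genes.

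PDIA3 (ENSG00000167004, chr15:44038590-44065477, plus strand), the isomerase that serves both lectins, was close to CALR in its ratio. It had 309, 305 and 257 TMM-scaled CPM in miR-219 libraries and 467, 316 and 300 CPM in control libraries, in date order. The control library of 22 August stood above all others, and the other control libraries overlapped with the mimic libraries. The log2 fold change was −0.31 (SE 0.18, 95% CI −0.71 to 0.08), with log2 ratios per date of −0.59, −0.05 and −0.22. Leaving out the control library of 22 August gave −0.09, and leaving out any other 1 library gave −0.43 to −0.23.

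The glucosidases had near equal means in both groups. GANAB had 630, 441 and 386 CPM in miR-219 libraries and 534, 521 and 411 CPM in control libraries, and its log2 fold change was −0.01, with an SE of 0.19. Its partner subunit PRKCSH had 359, 274 and 264 CPM in miR-219 libraries and 334, 335 and 273 CPM in control libraries (log2 change −0.07, SE 0.16). MOGS had 75.5, 54.3 and 57.5 CPM in miR-219 libraries and 59.8, 63.9 and 59.8 CPM in control libraries (log2 change 0.03, SE 0.15). For all 3 genes the mimic library was the higher one on 22 August and the lower one on both later dates, so their groups overlapped.

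The glucosyltransferases had near equal means as well. UGGT1, the folding sensor, had 117, 97.0 and 71.0 CPM in miR-219 libraries and 89.4, 99.6 and 78.5 CPM in control libraries (log2 change 0.09, SE 0.18, 95% CI −0.30 to 0.49). UGGT2 was scarce, with 19.1, 20.4 and 18.3 CPM in miR-219 libraries and 21.2, 18.2 and 17.2 CPM in control libraries (log2 change 0.03, SE 0.15). Among the 8 genes, CANX was above the control on all 3 dates, which was so for 15.6% of the genes tested, and CALR and PDIA3 were below it on all 3, which was so for 14.4%. The 95% CIs of CALR, PDIA3, GANAB, PRKCSH, MOGS, UGGT1 and UGGT2 left out a 2-fold change either way. That of CANX (0.42 to 1.21) held a 2-fold rise.

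**Figure D2:**
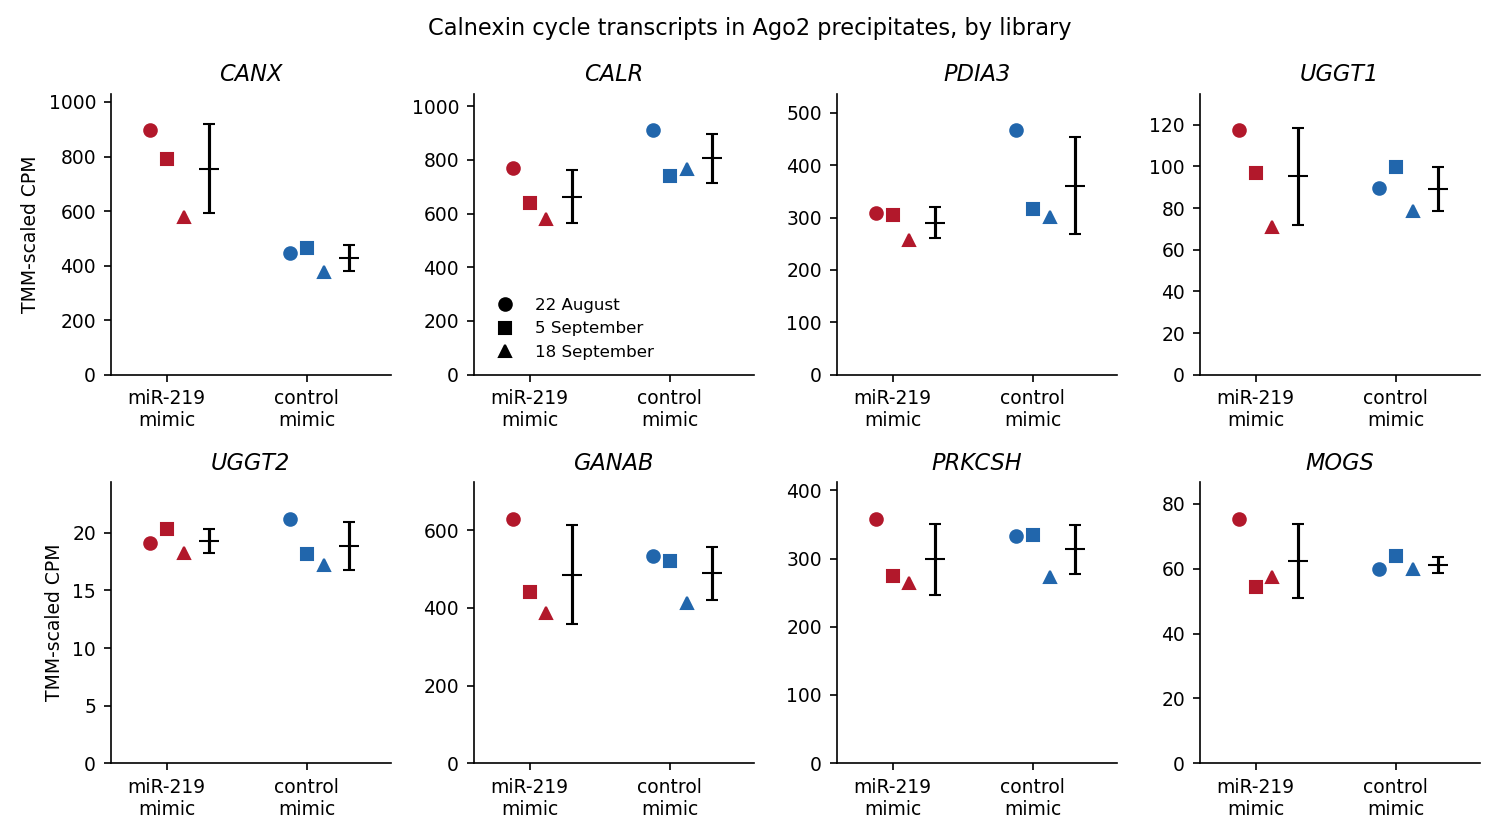
TMM-scaled CPM of each calnexin cycle gene in the 6 libraries, with the microRNA-219 mimic in red on the left and the negative control mimic in blue on the right. Point shapes mark the date, and black marks give the mean and SD of 3 libraries. CANX is the gene whose groups do not overlap, at 577 to 897 CPM in miR-219 libraries and 376 to 464 CPM in control libraries.

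**Figure D3:**
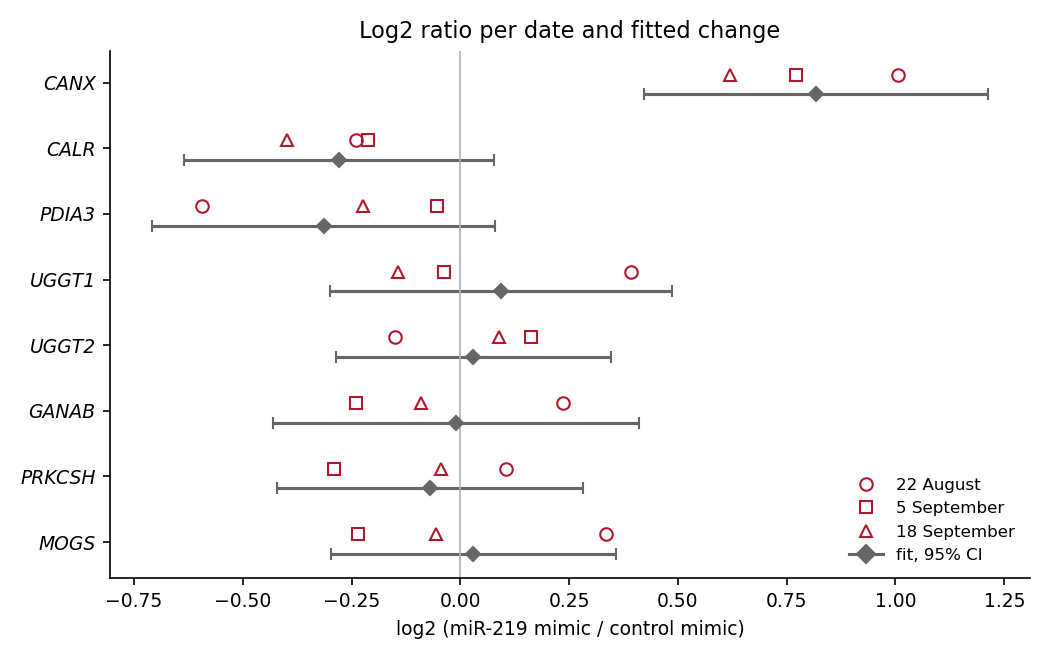
Log2 ratio of the microRNA-219 mimic to the negative control mimic for each gene, with an open red symbol for each date and a grey diamond for the fitted change with its 95% CI. CANX lies right of 0 on each date (1.01, 0.77 and 0.62), CALR and PDIA3 lie left of 0, and the other 5 genes have dates on both sides.

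Setting CANX against CALR inside each library removes any scaling between libraries. There were 1.16, 1.24 and 0.994 CANX counts for each CALR count in miR-219 libraries, against 0.490, 0.627 and 0.491 in control libraries, in date order. The lowest mimic library was thus above the highest control library. On the log2 scale the ratio averaged 0.17 ± 0.16 in miR-219 libraries and −0.91 ± 0.20 in control libraries (SD, n = 3 each). The difference was 1.25, 0.98 and 1.02 on the 3 dates, with a mean of 1.08, or 2.12-fold. Since CANX was chosen for its own difference, this ratio is a description as well.

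The ratio of CANX to its other partners was also higher in the mimic libraries. Against UGGT1 it was 7.64, 8.16 and 8.12 in miR-219 libraries and 4.99, 4.66 and 4.78 in control libraries (SD on the log2 scale 0.05 in each group). Against GANAB there were 1.42, 1.80 and 1.49 CANX counts for each GANAB count in miR-219 libraries, and 0.835, 0.891 and 0.913 in control libraries. Against PDIA3 the ratio was 2.90, 2.60 and 2.24 in miR-219 libraries and 0.955, 1.47 and 1.25 in control libraries. For each of the 7 partners the groups did not overlap, as was so for 66.1% of all other genes tested when CANX counts were divided by theirs. The mean log2 difference ran from 0.73 (UGGT1) to 1.09 (PDIA3). All 7 ratios share the CANX counts, for which CANX was chosen, so their separation says nothing about the partners.

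**Figure D4:**
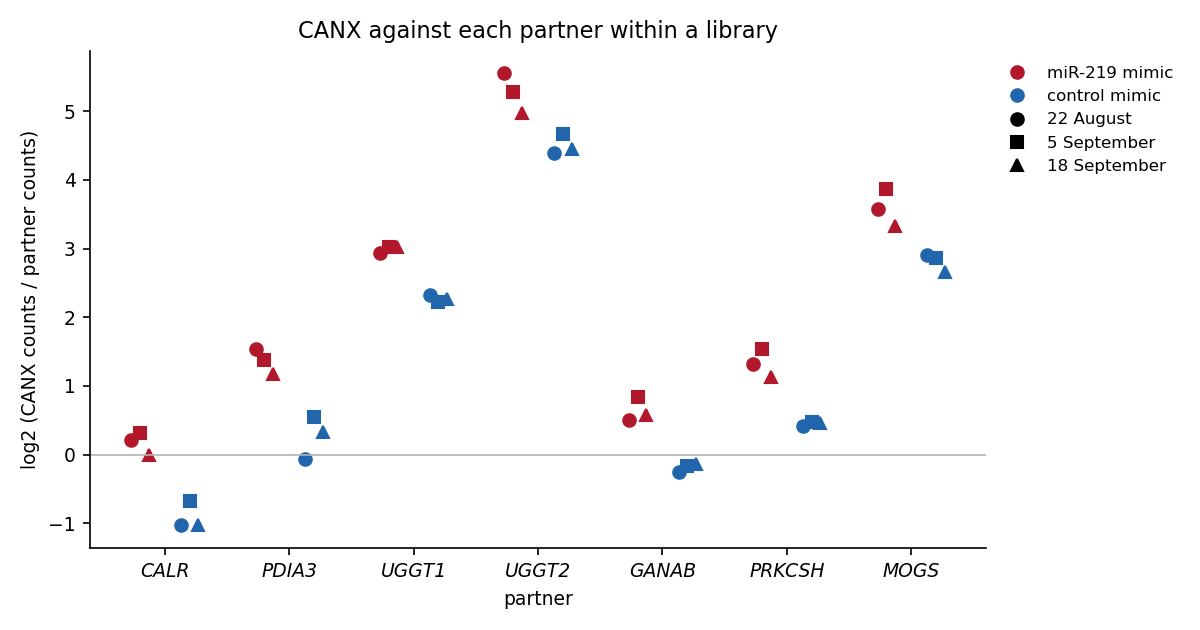
Log2 of CANX counts over the counts of each partner in the same library, for the microRNA-219 mimic (red, left) and the negative control mimic (blue, right), with symbols for the dates. For CALR the mimic libraries lie between −0.01 and 0.31 and the control libraries between −1.03 and −0.67.

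Shares of the summed counts of the 8 genes follow from the choice of CANX, since a larger share of CANX leaves less for the rest. CANX gave 28.2, 30.2 and 26.1% of the summed counts of the 8 genes in miR-219 libraries and 15.6, 18.1 and 16.5% in control libraries. CALR gave 24.3, 24.4 and 26.2% in miR-219 libraries and 31.8, 28.9 and 33.5% in control libraries. Wilson 95% intervals of these shares reached at most 0.422 percentage points to either side and cover counting error only. With CANX left out of the sum, CALR gave 33.8, 34.9 and 35.5% in miR-219 libraries and 37.7, 35.3 and 40.2% in control libraries, and the groups overlapped. The sum of the 8 genes overlapped between the groups, at 3177, 2623 and 2212 CPM in miR-219 libraries and 2862, 2559 and 2280 CPM in control libraries. Without CANX the other 7 genes came to 2281, 1831 and 1635 CPM in miR-219 libraries and 2416, 2094 and 1904 CPM in control libraries. This sum was lower in miR-219 libraries on each date, but the groups overlapped here too. The highest mimic library (2281 CPM) lay above the control libraries at 2094 and 1904 CPM. Abundant genes leaned below the control as well (70.8% of those with a mean of at least 300 CPM). The part of that lean in the sum was not tested.

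Levels of different genes were compared per kilobase of the gene length in the table. CALR had the highest level in all 6 libraries, at 349 ± 51.2 CPM per kb in miR-219 libraries and 423 ± 48.4 in control libraries (SD, n = 3 each). CANX came second in all 3 mimic libraries at 177 ± 38.2 CPM per kb. In the control libraries it was at 101 ± 11.0 CPM per kb, below PRKCSH (139 ± 15.8) and GANAB (125 ± 17.3) in each of them and level with PDIA3 (96.9 ± 24.7) within the spread. PRKCSH and GANAB did not differ beyond their spread in miR-219 libraries, at 132 ± 22.9 and 124 ± 32.7 CPM per kb. MOGS followed at 21.6 ± 3.93 in miR-219 libraries and 21.1 ± 0.83 in control libraries, then UGGT1 at 8.71 ± 2.12 and 8.16 ± 0.96, and UGGT2 at 3.99 ± 0.218 and 3.91 ± 0.44 CPM per kb. The order from PDIA3 down to UGGT2 was the same in all 6 libraries.

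Dates of collection were independent of the choice of genes and could be tested. By edgeR's test of the date terms, 0 of 8 genes differed between dates at an adjusted p under 0.05 (adjusted p from 0.343 for GANAB to 0.735 for UGGT2), against 0.308% of all genes tested. GANAB, CANX and UGGT1 had an unadjusted p under 0.05, as did 13.2% of all genes tested. DESeq2's likelihood ratio test called 0 of the 8 and 1.17% of all genes with an adjusted p. With no filter on low counts edgeR called GANAB (adjusted p = 0.0365), along with 2.01% of all genes. TMM-scaled means were highest on 22 August and lowest on 18 September for all 8 genes (14.8% of the genes tested). GANAB averaged 0.54 higher on the log2 scale on 22 August than on 18 September, and CANX 0.44 higher. Without scaling between libraries this order held for 3 of the 8 genes, PDIA3, GANAB and PRKCSH (6.44% of the genes tested).

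The wider folding pathway was described through 5 further lists, of 69 genes tested. In each list 0 genes passed in either direction, by edgeR over all genes or by DESeq2. Cofactors and paralogues of the cycle lay at a median of −0.22 in log2 fold change, where 2 of 11 genes were above 0 (0 members with an unadjusted p under 0.05). The median was 0.00 over all genes tested and −0.04 over the 4169 with a mean of at least 50 CPM. MLEC (malectin), an ER lectin for glucose-bearing chains, had 0.32 (SE 0.16). SELENOF, a selenoprotein that binds UGGT1, had −0.33 (SE 0.18) and the disulfide isomerase P4HB −0.30 (SE 0.17). CALR3, the testis form of calreticulin, was not tested, at no more than 2 counts in a library.

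Other chaperones and the enzymes that attach the sugar chain also lay mostly below 0, a lean that abundant genes shared. Of the 4169 genes with a mean of at least 50 CPM, 59.7% were below 0 (median −0.04). Of the 343 with at least 300 CPM, 70.8% were below 0 (median −0.08). The part of this lean in the list medians was not tested. ER lumen chaperones had a median of −0.12 with 2 of 13 above 0 (0 with an unadjusted p under 0.05). There the HSPA5 cochaperone DNAJB11 had −0.28 (SE 0.15), SDF2L1 −0.28 (SE 0.16) and CRELD2 0.18 (SE 0.13). Subunits of the oligosaccharyltransferase had a median of −0.16 with 1 of 11 above 0. DDOST had 278, 224 and 259 CPM in miR-219 libraries and 357, 324 and 339 CPM in control libraries (log2 change −0.42, SE 0.14). It was the 1 member with an unadjusted p under 0.05, which 488 of all 16233 genes tested had. RPN2 had −0.26 (SE 0.15) and DAD1 −0.25 (SE 0.16). The medians of the cofactor, chaperone and oligosaccharyltransferase lists were below 0 on 22 August and 18 September and above 0 on 5 September (0.12, 0.07 and 0.02). The size of these medians moved when single libraries were left out. Without the control library of 22 August they were −0.09 (cofactors) and −0.02 (chaperones). Without the control library of 5 September they were −0.21 (chaperones) and −0.29 (oligosaccharyltransferase), and without the mimic library of 18 September the chaperone median was −0.05.

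Steps after the cycle were mixed. Genes of mannose trimming and ER-associated degradation had a median of −0.01 with 9 of 18 above 0. OS9, a lectin that hands misfolded glycoproteins to degradation, had −0.48 (SE 0.20), HERPUD1 −0.24 (SE 0.16) and the mannosidase-like EDEM3 0.22 (SE 0.16). Genes of export from the ER had a median of −0.08 with 5 of 16 above 0. LMAN2, a cargo lectin for high-mannose glycoproteins, had 206, 151 and 197 CPM in miR-219 libraries and 283, 227 and 266 CPM in control libraries (log2 change −0.48, SE 0.16). The coat subunit SEC23A had −0.23 (SE 0.13) and ERGIC3 −0.19 (SE 0.15). OS9 and LMAN2 were the 1 gene in each of these lists with an unadjusted p under 0.05, which 488 of all 16233 genes tested had. Leaving out 1 library at a time gave medians of −0.04 to 0.02 for degradation and −0.08 to −0.02 for export, both highest without the control library of 22 August.

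**Figure D5:**
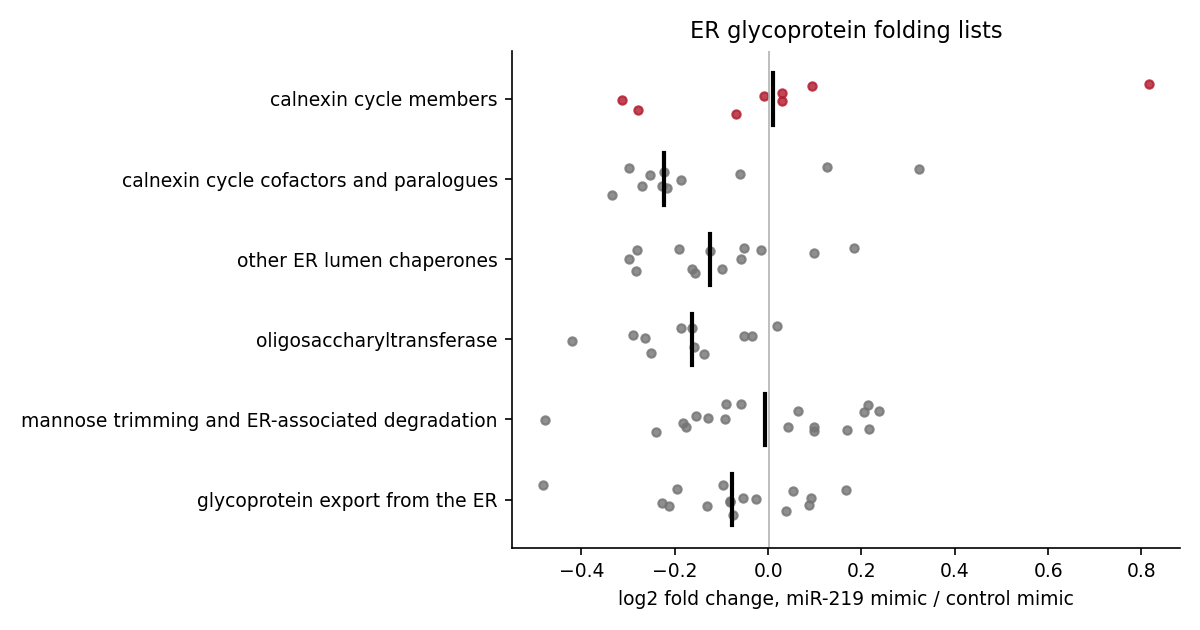
Log2 fold change (microRNA-219 mimic over negative control mimic) of each gene tested in the calnexin cycle (red) and in 5 further ER lists (grey), with a black bar at each list's median and a grey line at the median of all genes tested. CANX lies alone at 0.82, and the list medians run from −0.22 to 0.01.

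Genes that share the promoter element of CANX lay on both sides of 0. Of the 25 genes with the element, 15 were tested, with 5 above 0 and 10 below 0. Their median log2 fold change was −0.06, and values ran from −0.32 (EIF2A) to 0.82 (CANX). HSPA5, the main ER chaperone of the Hsp70 family, had −0.30 (SE 0.24), HSP90B1 −0.06 (SE 0.23) and the disulfide isomerase PDIA6 −0.22 (SE 0.16). Above 0 besides CANX were TRIM5 (0.27, SE 0.20), CRELD2 (0.18, SE 0.13), FICD (0.09, SE 0.14) and SERP1 (0.04, SE 0.13). The element is a match of letters, and its use in these cells was not measured.

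Genes with a profile like that of CANX or CALR over the 6 libraries are listed as a description. Among 4169 genes with a mean of at least 50 CPM, the 5 with the highest Pearson r to CANX were FANCI (0.98, a DNA crosslink repair protein), ULK2 (0.97, a kinase of autophagy), RACGAP1 (0.96, a regulator of cytokinesis), PJA2 (0.95, a ubiquitin ligase) and NEK9 (0.95, a mitotic kinase). Their log2 fold changes ran from 0.17 (NEK9) to 0.33 (PJA2). Values above 0 follow from likeness to CANX, which was chosen for its difference between the mimics. That these values lie below CANX follows from its choice too, since it ranked 2 of the 4169 genes by fold change. For CALR the 5 were the ubiquitin-conjugating enzymes UBE2R2 and UBE2Z (0.99 each), the splicing factor RBM22, the nucleolar protein RSL1D1 and the mitochondrial initiation factor MTIF2 (0.98 each). These values describe likeness over 6 libraries that share their depth and dates with the target gene.

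The genes next to CANX on chromosome 5 had values near 0. HNRNPH1, the next tested gene before it, had a log2 fold change of −0.13 (SE 0.16), and MAML1, the next after it, −0.01 (SE 0.16). Counting by strand is not stated, so reads of overlapping genes cannot be assigned by strand. The 10 genes that overlap one of the 8 had at most 50 counts in a library (CCDC151, beside PRKCSH). PDIA3P, a pseudogene copy of PDIA3, had at most 57 counts.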

How the data were processed

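Ago2-bound RNA from 6 HEK293 libraries was sequenced. The values the authors deposited are whole-number counts per gene, not normalized. The submitters' processing notes name STAR 2.5, HTSeq 0.6.1, DESeq2 and hg19, without saying which step each did, and a strand setting for counting is not given in the sources used here. Each count column belongs to 1 sample, as its name shows. Groups and dates come from the labels.

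The main test was edgeR's quasi-likelihood F test (edgeR 4.0.16 under R 4.3.3) after TMM scaling and filterByExpr (min.count 10, min.total.count 15), without a block. Adjusted p-values are Benjamini-Hochberg over all genes tested, with a threshold of 0.05. DESeq2 1.42.0 and limma 3.58.1 (limma-voom) gave alternatives. A prior count of 2 went into the per-date log2 ratios. The SE was obtained by dividing the log2 fold change by the root of F. Python 3.11.15 with pandas 2.3.3 made the tables, and matplotlib 3.10.9 the figures. The code was tested on simulated counts.

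The labels pair 1 library per group by a shared date, and deviations of the paired libraries from their group means correlated at 0.0466, 0.154 and 0.513 in date order. Between mimic and control libraries of different dates these correlations ran from −0.399 to 0.243, so the values of the first and second dates lay within that range. Nothing says that libraries came from separate cultures, so p-values measure a spread that may be technical. No 2 libraries of a group were duplicates.

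The genes and lists were chosen with earlier results of these data known. Named were the 8 genes, AGO2, the 3 lowest p of each other list, the 5 genes most like CANX and CALR, and the neighbours of CANX. MT-ND4L, OAS3, EIF2A, HSPA5, HSP90B1, PDIA6, TRIM5, FICD and SERP1 were named after values were seen.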

Additional observations from a re-analysis of the deposited data

How the results depend on the processing

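Over the 18 alternative settings, the log2 fold change of CANX stayed between 0.68 and 0.98 and that of CALR between −0.40 and −0.18. Leaving out each library gave −0.40 to −0.18 for CALR, the lowest without the mimic library of 22 August. The log2 ratio of CANX to CALR differed by 0.99 to 1.20 in 11 settings. With the trend with gene length removed, a choice made after seeing the data, CANX was at 0.76, CALR at −0.23 and the ratio difference at 0.99. Over the same 18 settings UGGT1, UGGT2, GANAB, PRKCSH and MOGS took both signs.

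Against 0 calls in either direction in the reported fit, leaving every gene in gave 6 genes higher and 14 lower. DESeq2 gave 2 higher and 3 lower, and DESeq2 plus the replicate block gave 4 higher and 7 lower. CANX was the 1 calnexin cycle gene called in each of these 3. The other settings, edgeR with the replicate block among them (CANX log2 fold change 0.80), called 0 genes. Between dates, 1 of the 8 genes, GANAB, was called with no filter. The 5 further ER lists had 0 calls in all 17 settings with a test. The cause of these shifts was not tested. With 3 libraries per group, the 95% CI of the log2 fold change held 0 for each of the 7 genes other than CANX. That the CI of CANX left out 0 follows from its choice by this contrast.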
